A study of Mus musculus with 2 samples.

Results

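The genes described here are 4 actins (Actb, Actg1, Acta2 and Actg2), both widely studied beta-thymosins (Tmsb4x and Tmsb10), 2 profilins (Pfn1 and Pfn2) and 2 cofilins (Cfl1 and Cfl2). They were chosen by gene symbol, and all 10 symbols were present among the 22028 protein-coding genes and 55536 genes of the release M21 tables. PolyA plus RNA-seq had been made from the facial prominences, the embryonic swellings that grow into the face, of B6NCrl mouse embryos aged 12.5 days. Replicate 2 was a pool of 88 embryos and replicate 1 a pool of 120 embryos, both of mixed sex and with no treatment named in the labels. Each library began with 10 ng of RNA primed with oligo-dT, with ERCC spike-ins added, and was fragmented by Nextera tagmentation. Both samples formed 1 group, so no condition could be compared, and the 2 pools are the only replicates.

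Actin is the protein of the thin filaments that shape, move and divide cells. Monomers join at one end of a filament and leave at the other, and the pool of free monomers is held by thymosins, which sequester them, and by profilins, which hand them to growing ends. Cofilins bind ageing filaments, sever them and return monomers to the pool. In embryonic mesenchyme, the loose tissue that fills the facial prominences, these genes serve cell migration and rounding up for division, while smooth muscle and striated muscle use their own actins.

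Expected counts, which are estimated numbers of reads per gene, summed to 41092194 in replicate 2 and 28705073 in replicate 1, of which spike-ins took 3.10% in replicate 2 and 2.85% in replicate 1. Levels are given in TPM, a share of all transcripts corrected for length, so that genes can be compared with each other. Facial mesenchyme markers were present at means of 60.4 to 313 TPM over 8 of 8 genes, with Msx1 highest. Markers of other cells in the tissue were present too: their medians were 645.7 TPM for 8 erythroid genes, 75.2 TPM for 7 neuronal genes, 62.7 TPM for 6 epithelial genes, 38.9 TPM for 8 striated muscle genes, 23.4 TPM for 6 endothelial genes, 7.43 TPM for 8 macrophage genes, 7.03 TPM for 8 smooth muscle genes and 5.44 TPM for 6 pericyte genes. Erythroid genes, made in red cells, summed to 16556 TPM in replicate 2 and 18143 TPM in replicate 1. Neuronal genes were lower in replicate 2 in 7 of 7 cases, at sums of 407 TPM in replicate 2 and 530.3 TPM in replicate 1. In a bulk sample, fewer cells of a type and less RNA per cell cannot be told apart, and this holds for every level below.

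The cytoplasmic actins and the thymosins are shown first as sequence, because they include the 4 genes of highest level among the 10 and show how much the members of a family share. The coding sequences are those of GENCODE release M21 on mm10, printed 5′ to 3′ on the coding strand. Actg1 and Actb both encode 375 residues, and their coding sequences are 88.6% identical. Of the 125 codons that differ, 4 change the residue, and the last of these is codon 10, so that all residue changes fall within the stretch printed here. The first 60 coding bases follow, with capitals marking the 9 bases at which Actg1 differs from Actb.
Actg1: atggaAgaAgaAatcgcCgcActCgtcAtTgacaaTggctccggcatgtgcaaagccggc
Actb: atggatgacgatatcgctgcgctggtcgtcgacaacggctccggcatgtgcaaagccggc

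The thymosins differ at a larger share of bases, over a much shorter frame. Tmsb10 and Tmsb4x each encode 44 residues in 132 coding bases, of which 40 differ, an identity of 69.7%, and 11 of 27 differing codons change the residue. Capitals mark the bases at which the pair differs.
Tmsb10: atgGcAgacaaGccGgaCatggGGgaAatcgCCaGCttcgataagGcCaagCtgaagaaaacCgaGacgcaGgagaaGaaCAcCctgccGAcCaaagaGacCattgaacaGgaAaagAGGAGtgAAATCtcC
Tmsb4x: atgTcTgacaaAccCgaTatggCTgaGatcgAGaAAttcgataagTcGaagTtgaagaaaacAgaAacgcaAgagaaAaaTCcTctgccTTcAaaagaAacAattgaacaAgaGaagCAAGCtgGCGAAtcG

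The other 2 families were compared in the same way. Cfl2 and Cfl1 encode 166 residues each at 71.5% coding identity, with 31 codons changing the residue, and Pfn2 and Pfn1 encode 140 residues each at 61.7% identity, with 52 such codons. Acta2 has 1131 coding bases and Actg2 has 1128, against 1125 in Actb, and no identity was computed between coding sequences of unequal length.

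All 10 genes were detected at 1 TPM or more in both libraries, as were 60.8% of the 22028 protein-coding genes. Summed over the 10, their TPM came to 2.31% of the total, spike-ins included, in replicate 2 and 2.27% in replicate 1. By share of expected counts of genes, which favours long transcripts and leaves out spike-ins, they held 1.37% in both. Their median level was 1593 TPM, beside a median of 4.79 TPM over all protein-coding genes and 21.5 TPM over the 13382 detected ones. The genes were named with earlier results of these data known, and several serve as reference genes because they are abundant, so the height of this median describes the choice.

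**Figure D1:**
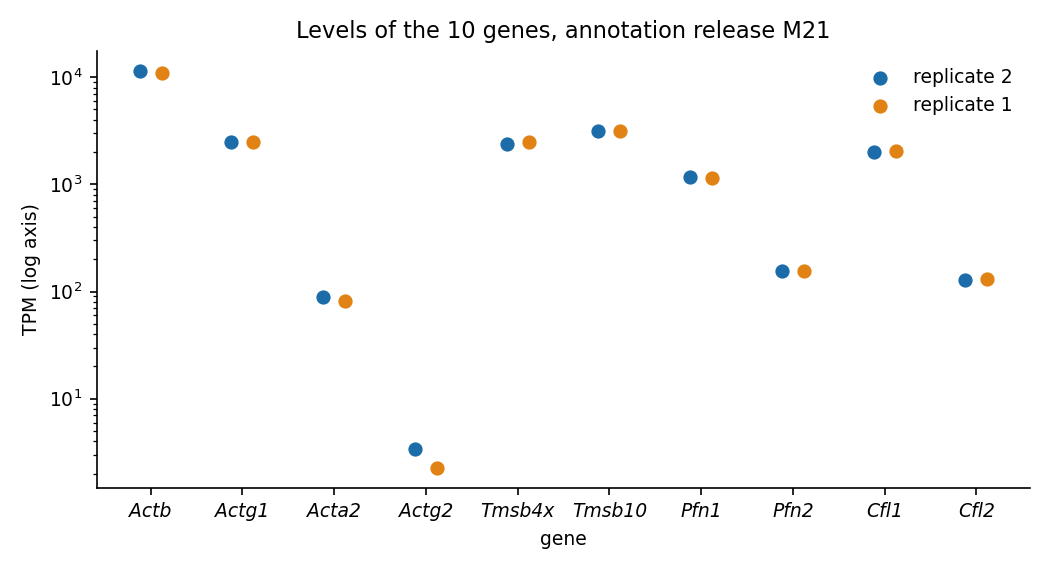
TPM of the 10 genes in release M21 on a log axis, with replicate 2 left of replicate 1 for each gene and 1 point per library. Actb stands highest at 10966 to 11515 TPM, Actg2 lowest at 2.26 to 3.42 TPM, and the pair of points of every other gene nearly coincides.

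Actb, on chr5:142903115-142906754 of mm10 (minus strand), encodes beta-actin, the main cytoplasmic actin at cell edges and in dividing cells. It had 11515 TPM in replicate 2 and 10966 TPM in replicate 1, from 256037 expected counts in replicate 2 and 176827 in replicate 1. This made it first of 22028 protein-coding genes by mean TPM, ahead of the embryonic globin gene Hbb-y at 7369 TPM. That position depended on 1 short annotated transcript, as described further on.

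Actg1, on chr11:120345690-120348542 (minus strand), encodes gamma-actin, the second cytoplasmic actin, which differs from beta-actin only near its amino terminus. It had 2461 TPM in replicate 2 and 2499 TPM in replicate 1, with 115622 expected counts in replicate 2 and 82221 in replicate 1, and ranked 17. As a share of the cytoplasmic pair, Actb held 82.4% of TPM in replicate 2 and 81.4% in replicate 1, or 81.9% ± 0.675 (SD, n = 2).

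Acta2 and Actg2 encode the smooth muscle actins of vessels and of the gut. Acta2, on chr19:34241090-34255590 (minus strand), is also switched on in myofibroblasts and, in mouse embryos, for a time in developing striated muscle. It had 89.4 TPM in replicate 2 and 81.4 TPM in replicate 1, with 4284 counts in replicate 2 and 2662 in replicate 1. Actg2, on chr6:83512905-83536265 (minus strand), had 3.42 TPM in replicate 2 and 2.26 TPM in replicate 1, from only 109 counts in replicate 2 and 50 in replicate 1. Both were far below the cytoplasmic actins: together they held 0.660% of the TPM of the 4 actins in replicate 2 and 0.617% in replicate 1.

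The markers beside Acta2 were uneven. Smooth muscle myosin Myh11 had 0.43 TPM in replicate 2 and 0.48 TPM in replicate 1, and the thin filament protein Cnn1 had 2.58 TPM in replicate 2 and 1.67 TPM in replicate 1. Lmod1, a leiomodin, had 0.68 TPM in replicate 2 and 0.39 TPM in replicate 1, so 2 of the 8 listed smooth muscle genes stayed under 1 TPM in both libraries, and none was at 0. Higher members of the list were Smtn (41.8 TPM on average), Des (14.1 TPM), Tagln (11.9 TPM), Mylk (7.37 TPM) and Synpo2 (6.70 TPM). Des is shared with striated muscle, and Tagln and Smtn with other contractile cells.

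Pericyte markers, from the other mural cells of vessels, ranged on average between 1.42 TPM (Abcc9) and 50.8 TPM (Pdgfrb, which mesenchyme also uses). Skeletal and cardiac actin, which are not among the 10, were measured alongside. Acta1 had 64.5 TPM in replicate 2 and 41.7 TPM in replicate 1. Actc1, the form that embryonic skeletal muscle also uses, had 204 TPM in replicate 2 and 171 TPM in replicate 1, so that of this pair only Actc1 stood above Acta2 in each library.

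Thymosins and profilins bind actin monomers. Tmsb10, on chr6:72957347-72958748 (minus strand), had 3179.9 TPM in replicate 2 and 3132 TPM in replicate 1, and ranked 10. Tmsb4x, on chrX:167207093-167209315 (minus strand), had 2377 TPM in replicate 2 and 2509 TPM in replicate 1, and ranked 18. Tmsb10 thus held 57.2% of the thymosin pair in replicate 2 and 55.5% in replicate 1. The ratio of Tmsb10 to Tmsb4x was 1.338 in replicate 2 and 1.248 in replicate 1.

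Pfn1, on chr11:70651850-70654644 (minus strand), encodes the widely expressed profilin. It had 1171 TPM in replicate 2 and 1152 TPM in replicate 1. Pfn2, on chr3:57841895-57848079 (minus strand), encodes the profilin best known from neurons, and had 155.4 TPM in both libraries. Pfn1 held 88.3% of the profilin pair in replicate 2 and 88.1% in replicate 1. The log2 ratio of Pfn2 in replicate 2 over replicate 1 was 0.00037, beside a median of -0.39 over the 7 neuronal markers, and their part in the level of Pfn2 was not tested.

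Cfl1, on chr19:5490455-5495201 (plus strand), encodes the cofilin of non-muscle cells. It had 2018 TPM in replicate 2 and 2031 TPM in replicate 1, and ranked 21. Cfl2, on chr12:54858809-54862877 (minus strand), encodes the cofilin of skeletal and cardiac muscle, though other cells make it too. It had 129 TPM in replicate 2 and 130.4 TPM in replicate 1. Cfl1 held 94.0% of the cofilin pair in each library.

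From high to low, the mean levels ran Actb, Tmsb10, Actg1, Tmsb4x, Cfl1, Pfn1, Pfn2, Cfl2, Acta2 and Actg2. Between neighbours in this order, the libraries overlapped only for Actg1 (2461 to 2499 TPM) and Tmsb4x (2377 to 2509 TPM), which do not differ beyond their spread. Each of the other neighbouring pairs kept its order in both libraries, but with 2 libraries no exact test can go below p = 0.5, and none was made. In release M4 the order of Cfl2 and Acta2 was the other way round: Cfl2 had 72.1 TPM in replicate 2 and 69.0 TPM in replicate 1, and Acta2 had 102 TPM in replicate 2 and 89.9 TPM in replicate 1. It was also the other way round over the protein_coding transcripts of M21 alone, with means of 40.4 TPM for Cfl2 and 85.4 TPM for Acta2.

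Replicate 2 was set against replicate 1 as the log2 ratio of TPM + 1, a scale that understates differences of low genes, and a ratio of 0.25 or more in size was counted. Of the 10 genes, 1 passed, beside 10.8% of all 22028 protein-coding genes, 5.21% being higher and 5.63% lower in replicate 2, and beside 7.87% of the 10920 genes with a mean of at least 5 TPM. That gene was Actg2, at 0.44, the member with the fewest reads. Its count ratio, scaled by the summed counts of genes, was 1.53 with a 95% interval of 1.08 to 2.18. The interval is exact (Clopper-Pearson) and covers counting error alone: several reads can stem from 1 amplified molecule, and no molecular identifiers tell them apart.

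For the other 9 genes the log2 ratios lay between -0.08 (Tmsb4x) and 0.13 (Acta2). Over the 10, 6 were higher and 4 lower in replicate 2, although scaling by spike-ins turned 5 of the 6 below 0, with a median of 0.01, beside a median of 0.00156 over 10920 genes of which 50.5% were higher. The deep counts gave narrow intervals, so small differences stood outside counting error: the scaled count ratio was 1.13 (1.07 to 1.18) for Acta2, 1.01 (1.01 to 1.02) for Actb, 0.941 (0.927 to 0.955) for Tmsb4x and 0.985 (0.976 to 0.994) for Actg1. In all, the interval lay above 1 for 3 genes, below 1 for 3 and held 1 for 4. These intervals do not cover the spread between pools. They also take the scaling by summed counts of genes as exact, so the genes outside 1 hold for this scaling only. Under TMM, another scaling of the counts, the log2 ratio of Actg1 was -0.0049, and scaling by spike-ins took that of Actb to -0.07. Intervals under other scalings were not computed.

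Muscle genes were also higher in replicate 2, as were Acta2 and Actg2, of which Acta2 turned to -0.0021 under spike-in scaling. Acta1 had a log2 ratio of 0.62 and Actc1 one of 0.2496, just under the threshold. Striated muscle markers were higher in replicate 2 in 8 of 8 cases, at sums of 388 TPM in replicate 2 and 319 TPM in replicate 1, with a median log2 ratio of 0.26. Smooth muscle markers were higher in 5 of 8 cases, at sums of 89.4 TPM in replicate 2 and 80.6 TPM in replicate 1. These counts of cases depend on the scaling too. The spike-ins differed by a log2 ratio of 0.14, more than the striated markers Myod1 (0.07) and Ttn (0.12) and the smooth muscle marker Smtn (0.12). Whether muscle cells take part in the differences of Acta2 and Actg2 was not tested.

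The same reads had been counted by the authors with annotation releases M21 and M4, which gives each gene a second value. Expected counts agreed closely: M4 over M21, the change was under 0.02% in size for Actb, Actg1, Actg2, Tmsb4x, Tmsb10 and Pfn1 in both libraries, and under 0.8% for Acta2 and Pfn2. The change was -3.48% in replicate 2 and -3.41% in replicate 1 for Cfl2, and -13.8% in replicate 2 and -14.1% in replicate 1 for Cfl1. TPM did not follow the counts. For genes of at least 5 TPM the median log2 ratio of M4 over M21 was 0.07 in each library, and ratios are read against that shift. Actg1, Actg2, both thymosins and Pfn1 sat near it, at 0.06 to 0.08, Acta2 and Pfn2 lay at 0.14 to 0.19, and Cfl1 had -0.20 in both libraries.

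Actb had 5687 TPM in M4 against 11515 TPM in M21 in replicate 2, and 5575 against 10966 TPM in replicate 1. The log2 ratio was -1.02 in replicate 2 and -0.98 in replicate 1, while the counts stood at 100.004% of the M21 value in both. Cfl2 had 72.1 TPM in M4 against 129 TPM in M21 in replicate 2, and 69.0 against 130.4 TPM in replicate 1, log2 ratios of -0.84 in replicate 2 and -0.91 in replicate 1. These were the 2 of 10 genes past 0.25 in the same direction in both libraries, beside 7.83% of 21474 protein-coding genes found in both releases. Of these, 6.19% were lower and 1.64% higher in M4, and among 10852 genes of at least 5 TPM 10.4% were lower. A log2 ratio of -0.8 or less in both libraries, a cut-off not set in advance, was found for 2.86% of those 10852 genes.

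**Figure D2:**
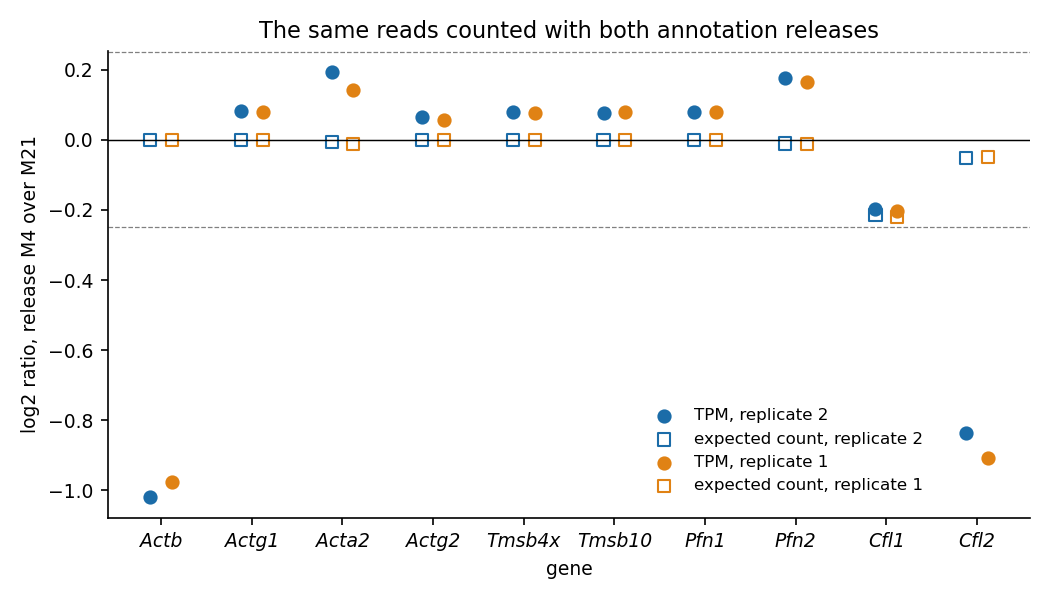
Log2 ratio of release M4 over release M21 for each gene, as filled circles for TPM and open squares for expected counts, with replicate 2 left of replicate 1; dashed lines mark 0.25 in either direction. Actb and Cfl2 lie between -0.84 and -1.02 in TPM while their counts stay near 0, and Cfl1 moves in both.

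Each gene's value is a sum over its annotated transcripts, and for Actb nearly all of it lay in 2. Actb-201, the transcript of 1920 bases that encodes beta-actin, had 4849 TPM in replicate 2 and 4775 TPM in replicate 1. Actb-209, a transcript of 241 bases typed as a processed transcript with no coding frame, had 6642 TPM in replicate 2 and 6163 TPM in replicate 1. Actb-209 was listed in M21 and not in M4. It held 57.7% of the gene's TPM in replicate 2 and 56.2% in replicate 1, but 9.63% of its counts in replicate 2 and 9.12% in replicate 1.

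Both exons of Actb-209, chr5:142903234-142903400 and chr5:142903581-142903654, lie inside the final exon of Actb-201, within its 3′ untranslated region with the stop codon (chr5:142903115-142903800, 686 bases). Every base of Actb-209 is thus also a base of Actb-201. Actb-201 also holds the stretch between these exons, which Actb-209 skips, so a read across that joint differs between the transcripts. The effective length used to turn counts into TPM was 142 bases for Actb-209 and 1821 for Actb-201. For the gene as a whole it was 1817 bases under M4 against 850.4 under M21 in replicate 2, and 1816 against 875 in replicate 1.

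**Figure D3:**
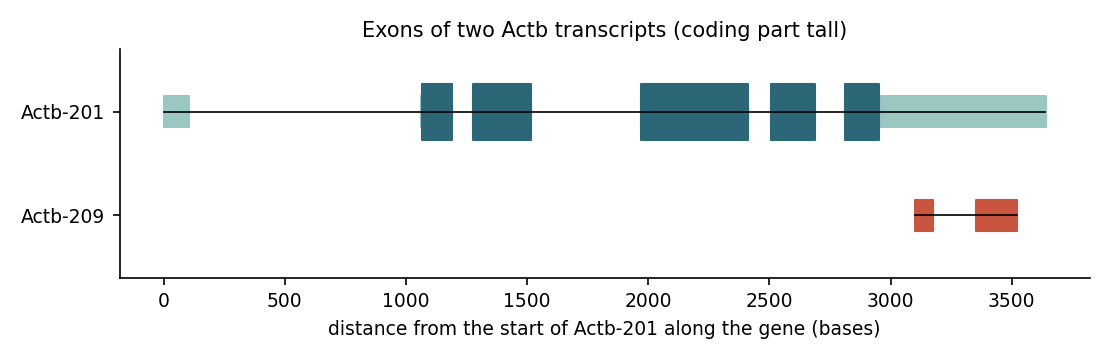
Exons of Actb-201 and Actb-209 drawn to scale from the start of Actb-201 in the direction of transcription, with the coding part of Actb-201 drawn taller. The 2 short exons of Actb-209 lie within the last exon of Actb-201, beyond its coding part.

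Over transcripts typed as protein_coding alone, a setting chosen after the data were seen, Actb had 4858 TPM in replicate 2 and 4783 TPM in replicate 1. Actb then held 66.7% of the cytoplasmic pair in replicate 2 and 66.0% in replicate 1. In M4 it held 68.6% in replicate 2 and 67.8% in replicate 1. The ratio of Actb to Actg1 was 2.00 in replicate 2 and 1.94 in replicate 1 over coding transcripts, 2.19 in replicate 2 and 2.11 in replicate 1 in M4, and 4.68 in replicate 2 and 4.39 in replicate 1 over all M21 transcripts. In each of these settings Actb stood above Actg1 in both libraries. By M4 values Actb ranked 3, below the globins Hbb-y and Hba-a2.

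Cfl2 had 1 transcript in M4 and 6 in M21. The coding Cfl2-201 had 42.6 TPM in replicate 2 and 38.2 TPM in replicate 1. Cfl2-203, a processed transcript that lacks most of the second coding exon, had 52.3 TPM in replicate 2 and 58.2 TPM in replicate 1, or 40.4% of the gene in replicate 2 and 44.6% in replicate 1. By counts the coding transcript led, with 3165 counts for Cfl2-201 and 1408 for Cfl2-203 in replicate 2, and 2003 and 1104 in replicate 1. All transcripts without a coding type held 67.1% of the gene's TPM in replicate 2 and 70.7% in replicate 1.

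Across the table, transcripts of types other than protein_coding held at least 50% of TPM in both libraries for 2 of the 10 genes, and for 10.2% of 10920 genes of at least 5 TPM. Among the 69 genes of at least 1000 TPM the share was 11.6%, or 8 genes. For the remaining 8 genes here, such transcripts held from 0% to 1.93% of TPM.

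**Figure D4:**
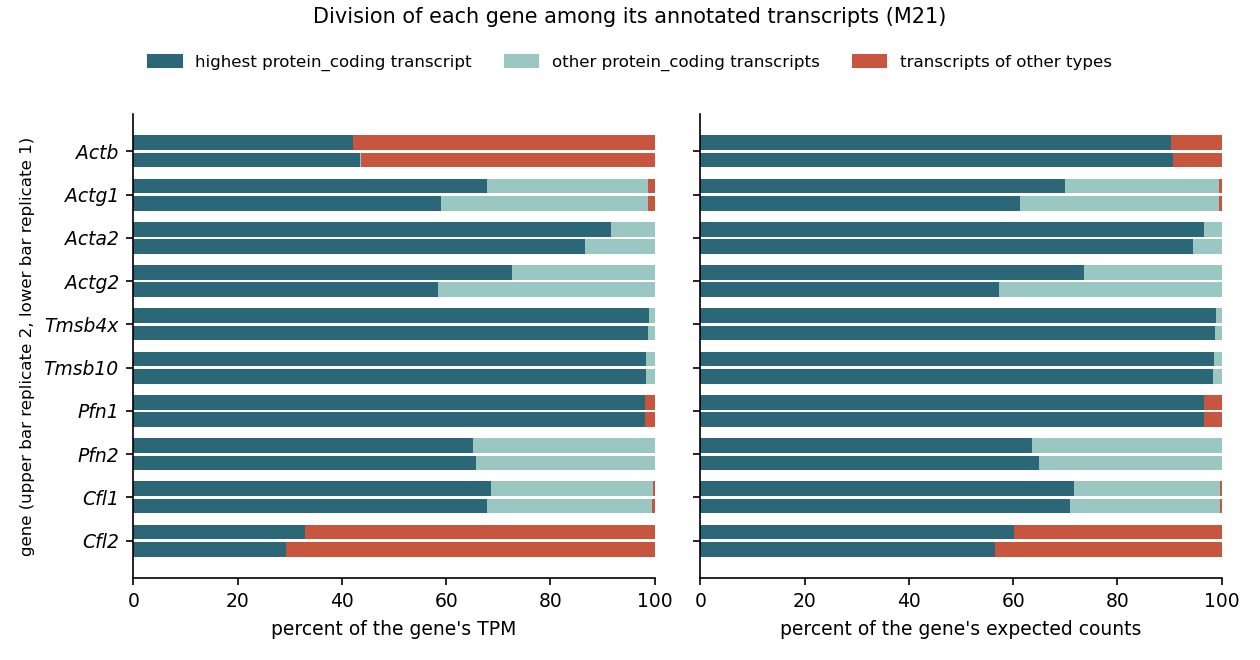
Share of each gene carried by its highest protein_coding transcript, its other protein_coding transcripts and its transcripts of other types in release M21, by TPM on the left and by expected counts on the right; for each gene the upper bar is replicate 2 and the lower bar replicate 1. In Actb the transcripts of other types take 57.8% of TPM but 9.75% of counts in replicate 2, and 56.4% but 9.28% in replicate 1; in Cfl2 they take 67.1% but 39.8% in replicate 2, and 70.7% but 43.5% in replicate 1.

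Several genes had 2 or more abundant coding transcripts. Actg1-202 held 67.8% of the gene's TPM in replicate 2 and 59.1% in replicate 1, and Actg1-204 held 30.7% in replicate 2 and 39.3% in replicate 1, while the gene itself differed by a log2 ratio of only -0.02. Both hold the same 5 coding exons, and Actg1-204 lacks the noncoding first exon. Acta2-201 held 91.5% in replicate 2 and 86.6% in replicate 1, and Acta2-202, of 826 bases, the rest. For Actg2, Actg2-201 led in replicate 2 at 72.6% and Actg2-202 in replicate 1 at 58.5%, from 80.2 counts for Actg2-201 in replicate 2 and 28.6 for Actg2-202 in replicate 1. Tmsb4x-201, Tmsb10-203 and Pfn1-201 each held between 98.1% and 98.8% of their gene in both libraries.

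Pfn2 had a different leading transcript in each release. Under M4, Pfn2-201 held 95.8% of TPM in replicate 2 and 95.6% in replicate 1, and Pfn2-202 held 0.31% in replicate 2 and 0.15% in replicate 1. Under M21, Pfn2-202 held 65.2% in replicate 2 and 65.8% in replicate 1. Pfn2-202 was listed with 1879 bases in both releases, and Pfn2-201 with 1827 bases in M4 and 2342 in M21. The counts of Pfn2-201 were 7212 under M4 against 2438 under M21 in replicate 2, and 5024 against 1603 in replicate 1, with the gene's own counts changing by less than 0.8%. Pfn2-202 begins in another first exon, and its annotated frame of 273 coding bases is shorter than the 420 of Pfn2-201.

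Cfl1 had 1 transcript in M4 and 4 in M21. Cfl1-201 held 68.6% of TPM in replicate 2 and 67.9% in replicate 1. Its annotated coding sequence ends at base 5493677 of chromosome 19, beyond that of Cfl1-202 at base 5493490, so it is not the sequence compared above. Cfl1-204, in which a coding exon reads on into the following intron, held 26.3% in replicate 2 and 26.7% in replicate 1. Cfl1-202, which carries the coding sequence compared above and a last exon of 1821 bases, held 4.69% of TPM and 10.5% of counts in replicate 2, and 4.91% and 11.0% in replicate 1. Cfl1-201 itself had 45723 counts under M4 against 37963 under M21 in replicate 2, while the counts of the whole gene were 45723 under M4 against 53022 under M21.

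Processed copies, which are pseudogenes made when a messenger RNA is copied back into the genome, can share reads with their parent gene. A sequence search with BLAST (at least 80% identity over at least 50% of the copy) found 44 annotated copies of the 10 genes: 19 of Actg1, 10 of Cfl1, 8 of Tmsb10, 6 of Actb and 1 of Pfn1. None was found for Acta2, Actg2, Tmsb4x, Pfn2 or Cfl2. Expected counts were fractional for 4 genes, Actb, Actg1, Tmsb10 and Cfl1, and whole within 0.005 for the other 6, in both libraries. The 4 with fractional counts were thus the 4 with more than 1 copy. Snx32, which overlaps Cfl1 on the opposite strand, had fractional counts too, 470.23 in replicate 2 and 376.81 in replicate 1. The source of the fractions was not tested.

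Few reads had gone to the copies. Some counts were given to 19 of the 44 copies in replicate 2 and to 17 in replicate 1. The Actg1 copies held the most, 674 counts in replicate 2 and 502 in replicate 1, which is 0.583% of the counts of Actg1 in replicate 2 and 0.611% in replicate 1. In replicate 2, Gm12715 on chromosome 4 had 502 of these, Gm8399 on chromosome 13 had 128 and Actg-ps1 on chromosome 8 had 18.6. In replicate 1 they had 393, 70.5 and 17.8. The matched part of Gm12715 was 100% identical to Actg1, so reads in it cannot be assigned by sequence.

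The copies of the other genes held less. Actb copies had 32.7 counts in replicate 2 and 63.5 in replicate 1, which is 0.0128% of the counts of Actb in replicate 2 and 0.0359% in replicate 1. In replicate 2 these lay mainly at Gm15725 (20.7), Gm4750 (5.50) and Gm8464 (5.50), and in replicate 1 at Gm15725 (50.5), Gm4750 (9.37) and Gm8464 (2.63). Cfl1 copies had 40.5 counts in replicate 2, at Gm6180 (35.04), Gm48789 (4.47) and Gm7525 (1), and 29.9 in replicate 1, all at Gm6180. Tmsb10 copies had 44.7 counts in replicate 2 and 24.0 in replicate 1. These copies are very short, and the same few counts came to 49.2 TPM in replicate 2 and 37.0 TPM in replicate 1. In replicate 2 this TPM lay at Gm3788 (21.1), AC113528.1 (23.4) and Gm8034 (4.64), and in replicate 1 at Gm3788 (19.7), AC113528.1 (12.3) and Gm8034 (4.93). The Pfn1 copy had 2 counts in replicate 2 and 0 in replicate 1.

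Other genes overlap 3 of the 10. On the opposite strand, Snx32 shares 2967 bases with Cfl1 and had 470.2 counts in replicate 2 and 377 in replicate 1, beside 53022 for Cfl1 in replicate 2 and 37645 in replicate 1. The divergent 1700081N11Rik shares 231 bases with Cfl2 and had 10 counts in replicate 2 and 18 in replicate 1. Within Actg1, the small RNA genes Gm23419 and Mir6935 were at 0 counts. No source used here gives the strand setting of the counting, and without it reads in such overlaps cannot be told apart by gene.

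The promoters of muscle and cytoskeletal actins are known for the CArG box, the binding site of serum response factor (SRF), which actin itself controls through its monomer-binding coactivators, the MRTFs. RefSeq promoter windows on GRCm38.p6, from 250 bases before to 50 after the start, were given for 8 of the 10 genes, and 1 of the 8, that of Actg1, held a CArG box. Actb and Actg2 had no window and so were not searched, and the window of Acta2 held no match of the kind counted here. Each box printed below reads CC, then only A or T, then GG. Boxes with another base inside are not described here. Over all 32851 windows, 535 held one, or 1.63%. The box reads as a CArG box on both strands. The windows of Acta1 and Actc1 each held one as well. The 50 bases around each are printed with the box in capitals, all on the minus strand, at chr11:120348556-120348605, chr8:123894819-123894868 and chr2:114052893-114052942 in this order. The box begins 90 bases before the start in Actg1, 73 in Acta1 and 47 in Actc1.
Actg1: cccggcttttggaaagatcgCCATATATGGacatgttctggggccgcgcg
Acta1: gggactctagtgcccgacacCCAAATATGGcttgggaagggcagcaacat
Actc1: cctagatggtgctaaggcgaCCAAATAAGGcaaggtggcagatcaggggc

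A match describes letters, not binding, and a window without one says nothing of the factor. On average, Srf and its coactivator genes lay below the median of 21.5 TPM of detected protein-coding genes, with Mrtfa nearest to it at 21.2 TPM. Beside the median of 4.79 TPM over all protein-coding genes, only Myocd was lower. Srf had 9.36 TPM in replicate 2 and 8.26 TPM in replicate 1, Mrtfa had 18.5 TPM in replicate 2 and 23.9 TPM in replicate 1, and Mrtfb had 19.7 TPM in replicate 2 and 17.7 TPM in replicate 1. Myocd, the SRF coactivator of smooth and cardiac muscle, had 1.59 TPM in replicate 2 and 1.31 TPM in replicate 1.

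Around the 10 genes, 89 other genes of actin regulation in 11 lists were measured, of which 84 were detected. None of the 89 reached the level of Pfn1, and 17 exceeded that of Pfn2. Between the replicates, 4 were higher and 5 lower in replicate 2 by the threshold of 0.25, which is 10.1% of them beside 10.8% of all protein-coding genes. The higher ones were Tmsb15l (log2 ratio 0.63), Acta1 (0.62), Fmnl1 (0.47) and Cap2 (0.29), and the lower ones Scin (-0.39), Spire1 (-0.37), Mrtfa (-0.35), Tmsb15b1 (-0.35) and Spire2 (-0.25). Fmnl1, Cap2, Spire1 and Spire2 were named after their values were seen.

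**Figure D5:**
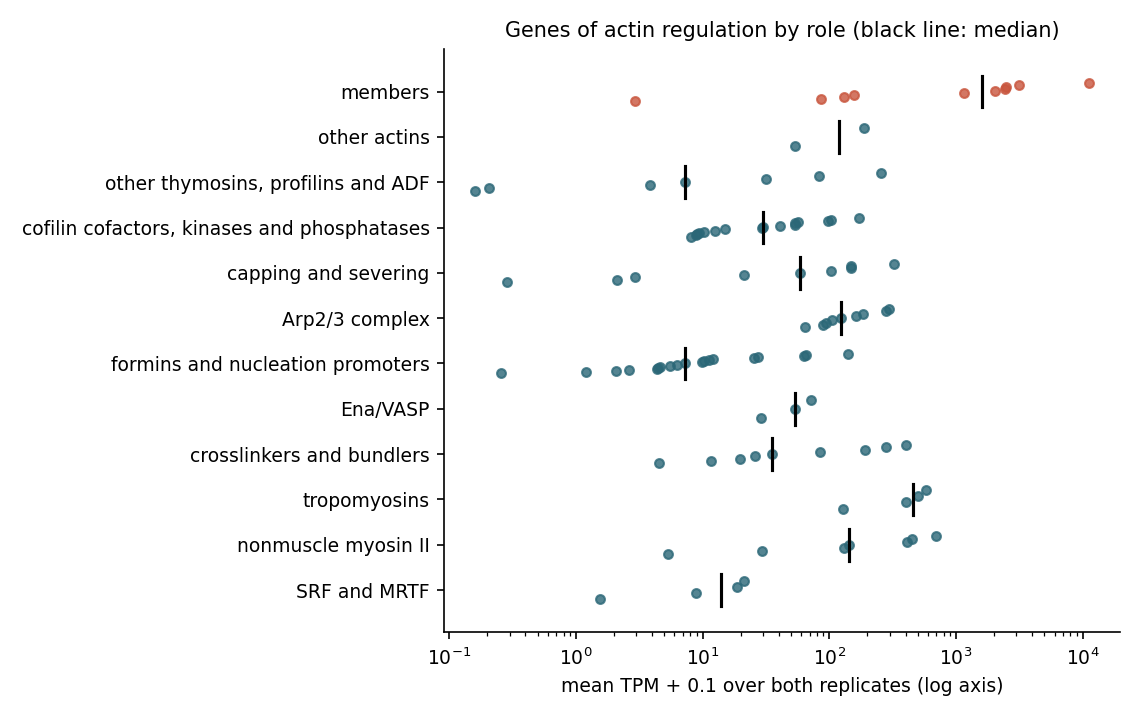
Mean TPM + 0.1 over both replicates on a log axis for the 10 genes (top row, labelled members) and the 89 others by role, with 1 point per gene and a black line at each list's median. The tropomyosins have the highest median of the other lists, at 454.5 TPM, and the formins and nucleation promoters and the other thymosins, profilins and ADF are among the lowest.

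Relatives of the monomer binders were mostly low. Dstn, which encodes the third actin-depolymerising protein of the cofilin family, had 259.7 TPM in replicate 2 and 257 TPM in replicate 1 and so stood above Cfl2. The thymosins Tmsb15b2 (83.4 TPM on average), Tmsb15b1 (31.8 TPM) and Tmsb15l (7.23 TPM) share sequence and had fractional counts, so their division is uncertain. Tmsb15l had 33.6 TPM under M4 against 9.00 TPM under M21 in replicate 2, and 30.0 against 5.46 TPM in replicate 1. Pfn4, a profilin best known from testis, averaged 3.78 TPM, and Pfn3 and Tmsb15a stayed at 0.12 TPM or less in each library.

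Factors that act with or on cofilin and actin monomers were all detected, 16 of 16, with a median of 29.7 TPM. The highest were Wdr1, the cofactor that speeds disassembly, at 171 TPM in both libraries, and the coronins Coro1b at 103 ± 3.98 TPM and Coro1c at 98.2 ± 2.31 TPM (SD, n = 2). Limk2, a kinase that switches cofilin off, came next with 54.00 TPM in replicate 2 and 59.0 TPM in replicate 1.

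Filament ends are held by capping protein, whose subunits Capzb (325 ± 1.39 TPM), Capza2 (149 ± 3.61 TPM) and Capza1 (148 ± 1.65 TPM, SD, n = 2) led their list of 9. The severing protein gelsolin, Gsn, had 101 TPM in replicate 2 and 105 TPM in replicate 1. Flii averaged 58.4 TPM and Capg 21.1 TPM. Scin, Avil and Vil1, relatives of gelsolin used in other tissues, averaged 2.00, 2.85 and 0.185 TPM.

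The Arp2/3 complex starts branched filaments. All 9 were detected, from Arpc3 at 64.5 TPM to Arpc2 at 297 TPM on average, with a median of 124 TPM. Arpc4 averaged 281 TPM, Actr3 184 TPM, Arpc5 163 TPM, Arpc1a 124 TPM, Arpc1b 104 TPM, Arpc5l 94.8 TPM and Actr2 89.2 TPM. Arpc3 differed most between libraries, with 69.5 TPM in replicate 2 and 59.6 TPM in replicate 1, a log2 ratio of 0.22.

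Formins and nucleation promoters, which start or extend filaments, had a median of 7.11 TPM over 19 genes, of which 17 were detected. The highest was Cttn, which steadies Arp2/3 branches, at 141 ± 3.68 TPM (SD, n = 2). Wasf2 averaged 65.5 TPM, Wasl 62.9 TPM and the formin Fmnl3 27.3 TPM. Was, the form of blood cells, had 0.15 TPM in replicate 2 and 0.16 TPM in replicate 1. Of the Ena/VASP proteins, which shield growing ends, Evl averaged 71.9 TPM, Vasp 53.9 TPM and Enah 28.7 TPM. Evl also moved with the release, with 36.2 TPM under M4 against 69.2 TPM under M21 in replicate 2, and 39.6 against 74.7 TPM in replicate 1.

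Proteins that bundle or bind filaments had a median of 35.05 TPM over 9 genes. This was above the formins and nucleation promoters (7.11 TPM) and below the Ena/VASP proteins (53.9 TPM). Fascin, Fscn1, which packs filopodia, had 407 TPM in replicate 2 and 397 TPM in replicate 1, Flna averaged 282 TPM and Actn4 190.5 TPM. Pls3 (84.5 TPM), Actn1 (35.05 TPM), Lcp1 (19.5 TPM), Flnc (11.6 TPM) and Pls1 (4.45 TPM) were lower on average. Lcp1 is the plastin of blood cells.

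Tropomyosins lie along the filament and decide which other proteins can bind. Tpm1 had 626 TPM in replicate 2 and 529 TPM in replicate 1, and Tpm2 had 138 TPM in replicate 2 and 119 TPM in replicate 1, log2 ratios of 0.24 and 0.22. Both also serve muscle, whose markers were higher in replicate 2 as given above, and their part in these values was not tested. Tpm4 averaged 504 TPM and Tpm3 405 TPM.

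The motor that pulls on these filaments, nonmuscle myosin II, pairs heavy chains with light chains. Of the light chains, Myl6 averaged 699 TPM, Myl12a 447 TPM, Myl12b 411 TPM over 2 gene IDs with that symbol, and Myl9 143.5 TPM. Myl12b had 187 TPM under M4 against 414 TPM under M21 in replicate 2, and 193.85 against 408 TPM in replicate 1. Its M4 values sum only those of the 2 IDs that M4 lists, so the releases may not cover the same entries. Among the heavy chains, Myh10 averaged 129.6 TPM, Myh9 29.5 TPM and Myh14 5.24 TPM.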

How the data were processed

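Gene and transcript tables for 2 libraries of polyA plus RNA-seq had been deposited on mm10, counted with GENCODE release M21 and again with M4, per the deposited descriptions. The aligner and quantifier, not given in the sources used here, stay unnamed. Per the file headers, the authors' gene tables hold an expected count, TPM as a maximum-likelihood and a posterior mean estimate, and FPKM. Per the file headers, the transcript tables add the percent of a gene's TPM in each transcript.

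The deposited M21 TPM was used as given. Summed expected counts per library were 41092194 in replicate 2 and 28705073 in replicate 1. Rows naming no gene, 3.10% of these counts in replicate 2 and 2.85% in replicate 1, stayed out of the scaling of counts. The deposited TPM includes them, and spike-ins summed to 71718 TPM in replicate 2 and 65218 TPM in replicate 1. Expected counts were rounded for intervals, and ratios used a pseudocount of 1. Other scalings were TMM in edgeR 4.0.16, median of ratios, spike-ins and FPKM. Copies were found with BLAST 2.17.0. The replicate comparison was run on simulated counts with counting error alone. Spread between pools and repeated reads of 1 amplified molecule were not simulated, so that run says nothing of them. With 1 group of 2 pools no p-value was computed.

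The members and the gene lists were chosen with earlier results of these data known, and spelling in the lists was corrected afterwards. Named genes are the 10 members, the other 2 actins, all genes of lists of up to 9, the 4 highest and those under 1 TPM in both libraries of longer lists, and 3 copies per member with the highest counts. Globin, marker and overlapping genes, and 4 genes past the replicate threshold, were named after their values were seen. One gene under this rule is not reported here.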

Additional observations from a re-analysis of the deposited data

How the results depend on the processing

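No paired analysis was possible because both libraries belong to 1 group. Under release M4, the share of all TPM was 1.75%, the median level of the 10 genes 1494 TPM, and the family shares 68.2% for Actb, 87.5% for Pfn1, 96.1% for Cfl1 and 1.19% for the smooth muscle actins. The median share of the leading transcript was 98.5% in M4 against 66.9% in M21. With the posterior mean TPM, these 10 genes held 2.22% of all TPM at a median of 1544 TPM, and Cfl1 held 94.0% of its pair. With annotated copies added, the median was 1596 TPM and the Cfl1 share 94.0%. Over protein_coding transcripts alone, chosen after the data were seen, the values were 1.63% of all TPM, a median of 1577 TPM, 66.3% for Actb, 88.0% for Pfn1, 98.0% for Cfl1 and 1.20% for the smooth muscle actins. Leaving out each replicate in turn gave 66.8% to 70.6% for the leading transcript, 2.27% to 2.31% for the share of all TPM and 1592 to 1595 TPM for the median. The Tmsb10 share stayed between 55.5% and 57.2% in these settings, copies added giving 56.7%. Actg2 was the 1 gene past the replicate threshold under TMM, median-of-ratios and spike-in scaling, FPKM, release M4 and a pseudocount of 0.1, and its 50 to 109 counts limit it. Spike-in scaling lowers the log2 ratio of replicate 2 over replicate 1 by 0.14 for 9 of the genes, and takes Actg2 to 0.34 against 0.44 without it. It turns Actb (-0.07), Tmsb10 (-0.12), Pfn1 (-0.11), Pfn2 (-0.14) and Acta2 (-0.0021) below 0. Cfl2 turned above 0 under TMM (0.07), median of ratios (0.07) and M4 (0.06), and Pfn2 turned below 0 with FPKM (-0.01). Of the 10 levels, 9 moved by over 1 SD under M4, 6 with the posterior mean, 5 over coding transcripts and 1 with copies added. The SD is that of 2 libraries and can be very small, 0.028 TPM for Pfn2, so small shifts count as moves. Under M4 the moves include the general shift, a median log2 ratio of 0.07 over genes of at least 5 TPM.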
